A study of Mus musculus with 32 samples.

Results

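The cells described are cycling osteogenic cells, namely cells that carried transcripts of both the cell division cycle and the osteoblast gene *Ibsp* (bone sialoprotein), a mineral-binding glycoprotein of bone matrix. They were chosen from 107853 barcodes in the first of 2 sequencing runs. A cell had to have 400 to 6200 detected genes, at most 10% mitochondrial unique molecular identifiers (UMIs, each counting a captured transcript), at least 5000 UMIs, fewer than 2 UMIs per 10000 from the leukocyte gene *Tyrobp*, and at least 1% of its UMIs from *Ibsp*. Of the 30438 osteogenic cells that met these limits, 1555 had at least 4 of the 6 cell cycle genes *Mki67*, *Top2a*, *Cdk1*, *Birc5*, *Ccna2* and *Cenpf* and were the members. They were compared, within each pool, with the 19404 osteogenic cells in which none of the 6 genes was detected.

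The cells were bone marrow-derived stromal cells of Diversity Outbred (DO) mice, an outbred stock bred from several inbred founder strains, grown under osteogenic conditions (BMSC-OBs) in medium with ascorbic acid, β-glycerophosphate and dexamethasone. Cells of 77 mice were combined into 16 pools of 4 or 5 mice, and each pool was sequenced in 2 runs, which gave 32 samples. All pools had the same culture treatment, so the comparisons are between classes of cells within a pool, and a pool mixes the genotypes of its mice, which were not told apart here. Each pool is 1 replicate, and p-values measure the spread between pools.

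Osteoblasts are bone-forming cells that secrete collagen I and proteins that control mineral deposition. They arise from stromal progenitors under the transcription factors RUNX2 and SP7, and some become embedded in matrix as osteocytes, while proliferation is commonly described as a feature of progenitors and early osteoblasts. The 6 cycle genes serve different steps: *Mki67* encodes the Ki-67 protein of dividing cells, *Top2a* a topoisomerase that untangles chromosomes, *Cdk1* and *Ccna2* a kinase and a cyclin that drive the cycle, *Birc5* (survivin) a chromosomal passenger protein, and *Cenpf* a kinetochore protein.

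These values chose the members and are given as a description. *Birc5* was detected in 97.6% of members, *Cdk1* in 91.4%, *Mki67* in 88.9%, *Top2a* in 87.9%, *Ccna2* in 85.7% and *Cenpf* in 76.8%. All 6 genes were found in 786 members, 5 in 421 and 4 in 348. Just inside the limit, cells with 4 genes had a median of 10 UMIs from the 6 genes together, and just outside it the 494 osteogenic cells with 3 genes had a median of 4. The median *Ibsp* share was 3.08% in members and 5.88% in comparison cells, and 128 members lay within 0.25 percentage points above the 1% limit while 194 cycling cells lay as close below it.

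Members were deeper than the cells they were compared with. Their median was 24158 UMIs and 4657 genes per cell, against 18076 UMIs and 3631 genes in comparison cells. A further 898 barcodes passed every other limit but had more than 6200 genes, and 235 of these had at least 4 of the 6 genes. As a measure of free RNA, which places transcripts of broken cells in other droplets, the 5122 barcodes with at least 10 *Tyrobp* UMIs per 10000 had a median of 0.0636% *Ibsp*, and 54 of them (1.05%, 95% exact binomial interval 0.793 to 1.37%) reached the 1% limit. Intervals of this kind cover counting error only.

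The total per pool ranged from 53990642 to 100777353 UMIs. In the second run, which read the same droplets again, all 1555 members were called as cells and 1377 (88.6%) met the whole rule again, whereas 0 of 19404 comparison cells reached 4 of the 6 genes. Barcodes found in more than 1 pool made up 3.28% of members and 2.85% of comparison cells. Droplets called doublets, from their likeness to pairs of cells added together, made up 15.7% of members and 6.91% of comparison cells, and the share was higher in members in 16 of 16 pools. Droplets with at least 2 *Xist* and at least 2 Y-gene UMIs, which can come from 2 mice, were 2.83% of members and 1.15% of comparison cells. Among the 1837 cells with under 1% *Ibsp* and at least 4 of the 6 genes, called doublets were 5.82% and droplets of the latter kind 0.817%. Why members had the higher shares was not tested. Called doublets were kept in the main comparison, and values without them are given beside named genes whose call their removal changed.

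Cycling osteogenic cells were present in every pool but unevenly. Their share of the osteogenic cells ranged from 1.29% to 23.9% with a median of 3.55% over 16 pools, and the number of members from 8 to 375 per pool. Pool 2 was highest, with 375 of 1570 cells (23.9%, 95% exact binomial interval 21.8 to 26.1%), and pool 1 followed with 138 of 1009 (13.7%, interval 11.6 to 15.95%). The other 14 pools lay between 1.29% and 5.37%, and the intervals of pools 1 and 2 did not reach any of theirs. Pool 2 alone held 24.1% of all members. Without it, the mean share, 5.44% ± 5.61 (SD, n = 16), was 4.21% ± 2.79 (SD, n = 15). The same pools also led among cells with under 1% *Ibsp*, in which 23.8% (pool 2) and 12.7% (pool 1) had at least 4 of the 6 genes, although pool 1 lay close to pool 8 (11.3%) there. Pool 7, with 8 members, was left out of the tests across genes, which used 15 pools.

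**Figure D1:**
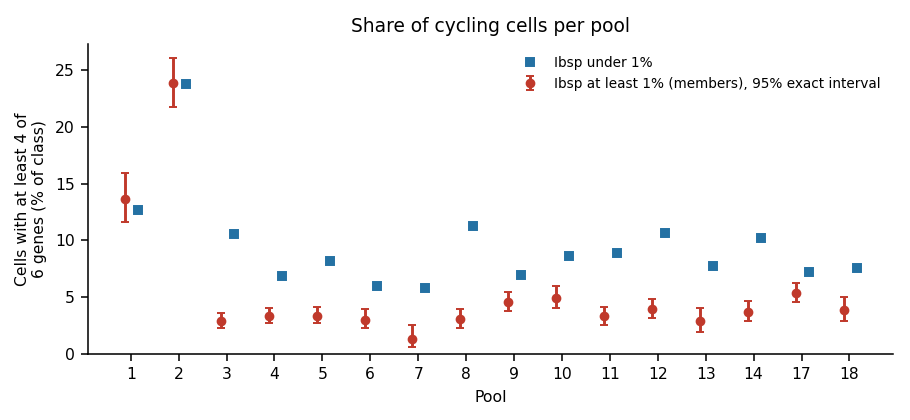
Percent of cells with at least 4 of the 6 cell cycle genes in each of 16 pools (horizontal axis), for osteogenic cells with 95% exact binomial intervals (red circles) and for cells with under 1% *Ibsp* (blue squares). Among osteogenic cells pools 1 and 2 stand apart from the other 14, among cells with under 1% *Ibsp* only pool 2 does, and in the other 14 the red circles lie below the blue squares.

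Because detection depends on depth, the shares were set against the depth of each pool. Across the 16 pools, Pearson's r between the median UMI count of osteogenic cells and the share of members was -0.21 and Spearman's rho was -0.50. With the pools of most extreme depth, 7 and 4, set aside, r was -0.18 (n = 14), and without pools 1 and 2, a choice made after seeing the data, r was -0.71 (n = 14). The sign was negative in each of these. The rule sets the share and limits the depth, so these values are a description, with no test.

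Cycling cells were less frequent among osteogenic cells than among the other cells of the same pools. When every cell was thinned to 5000 UMIs and called cycling with at least 3 of the 6 genes, the share in osteogenic cells ranged from 0.971% to 17.8% with a median of 2.69%, and in cells with under 1% *Ibsp* from 4.01% to 18.6% with a median of 6.68%. The ranges over pools overlapped, but within a pool the osteogenic share was lower in 16 of 16 pools. The mean difference was -3.72 ± 2.02 percentage points (SD, n = 16). The 6 genes and the *Ibsp* limit are those of the rule, so this difference is a description and no test is drawn from it. In pools 1 and 2, where cycling cells were most frequent, the difference was smallest, at -0.08 and -0.84 points. Without thinning, at 4 of the 6 genes, it was -4.13 ± 2.56 points, with the osteogenic share higher in 2 pools.

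The share was not graded evenly with *Ibsp*. At 5000 UMIs per cell, the median share of cycling cells over pools was 6.29% at under 0.1% *Ibsp*, 6.69% at 0.1 to 0.5%, 7.66% at 0.5 to 1%, 6.95% at 1 to 2%, 4.61% at 2 to 4%, 1.97% at 4 to 8% and 0.590% at 8% or more. In pool 2 the highest share was 30.1%, at 1 to 2% *Ibsp*, against 12.5% at under 0.1% and 3.97% at 8% or more. Within the osteogenic cells, sorted by the osteocalcin gene *Bglap*, a late osteoblast product, the median share was 4.83% at under 5 *Bglap* UMIs per 10000, 1.93% at 20 to 50 and 0.390% at 200 or more, where the highest pool, again pool 2, had 8.25%. Pools 1 and 2 did not follow this median. In pool 1 the share was 6.77% at under 5, 14.8% at 20 to 50, 8.93% at 100 to 200 and 3.25% at 200 or more, and in pool 2 it was 11.3%, 23.6%, 18.3% and 8.25%. *Ibsp* is part of the rule and its own level differed between the classes, so these shares are a description.

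**Figure D2:**
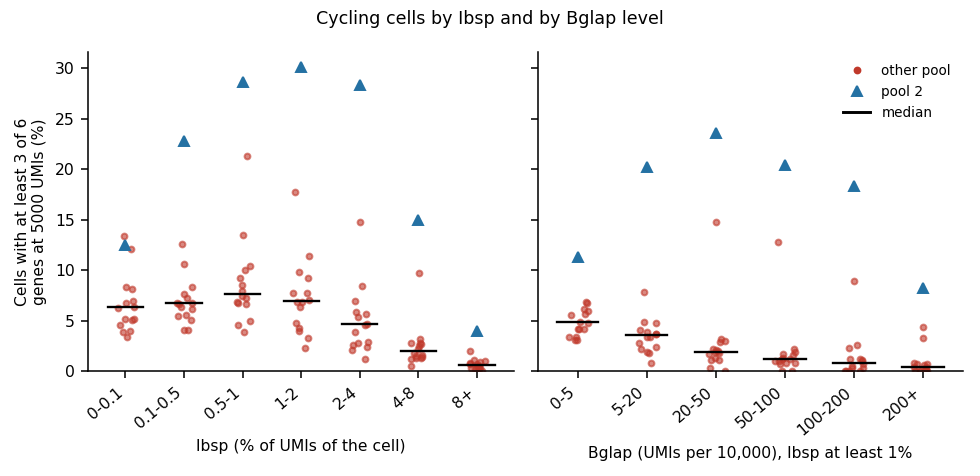
Percent of cells with at least 3 of the 6 cell cycle genes after thinning to 5000 UMIs, by the *Ibsp* share of the cell (left, all cells past the other limits) and by *Bglap* UMIs per 10000 (right, osteogenic cells only). Each point is a pool with at least 20 cells in the bin, triangles mark pool 2 and lines the median over pools, which falls from 6.95% at 1 to 2% *Ibsp* to 0.590% at 8% or more.

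Genes of DNA replication, mitosis and chromatin were high in members together with the 6 genes that chose them. They vary with those genes across the cycle, and a gene that passed the filter on low counts only through the members had to differ, so their values are a description. All 47 genes tested of the replication list (median log2 fold change 3.00), all 53 of the mitosis and spindle list (median 5.76) and all 24 of the chromatin and tubulin list (median 1.88) were higher, where 61.5% of the 11991 genes tested were called, 30.0% higher and 31.5% lower, and the median over all genes was -0.01. Levels are given as UMIs per 1000000 UMIs of a class (CPM), and fold changes are from the fit, which scales libraries by TMM, so a small fold change can differ in sign from the CPM. *Hmmr*, which encodes a spindle protein, had 58.5 to 176 CPM (median 141) in members over 15 pools against 0.167 to 0.785 CPM (median 0.424) in comparison cells. *Pclaf*, a binding partner of the replication clamp PCNA, had 146 to 519.6 CPM (median 319.9) against 1.70 to 4.57 CPM (median 2.86), and *Stmn1*, a regulator of microtubules, had 178 to 388 CPM (median 300.1) against 4.15 to 8.63 CPM (median 5.88). For each of the 3 genes, every pool's members lay above every pool's comparison cells. Comparison cells held few but not no such transcripts, and *Pcna* and *H2afz* were at a mean of 14.4 and 437 CPM there, against 62.5 and 1783 CPM in members.

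Further genes of these lists were, by log2 fold change, *Kif2c* (7.45) and *Nuf2* (7.198) of mitosis, *Clspn* (5.74), *Uhrf1* (5.41) and *Mcm5* (4.81) of replication, *Tk1* (5.81), *Rrm2* (4.78) and *Tyms* (3.63) of nucleotide synthesis, and *Hmgb2* (4.04), *Lmnb1* (4.58) and *Tubb5* (1.90) of chromatin and the cytoskeleton. Outside the lists, *Depdc1a* (8.10), *Pbk* (7.84), *Cdkn3* (6.40), *Knstrn* (5.61), *Cenpm* (5.30), *Lockd* (4.88), *Fam111a* (4.85), *Arhgap11a* (4.46), *Hist1h2ap* (4.35) and *Gmnn* (3.92) were the highest at 50 CPM or more, and most of them are known from mitosis or S phase. The replication-dependent histone *Hist1h2ap* varied widely, from 4.48 to 616 CPM in members.

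Each cell was also read at 5000 UMIs for 7 genes of early S phase (*Mcm2* to *Mcm7* and *Pcna*) and 5 of late G2 and mitosis (*Ccnb1*, *Ccnb2*, *Cdc20*, *Plk1*, *Aurka*). The rule chose members by 6 genes that themselves vary across the cycle, and comparison cells by the absence of these genes. The shares of each set are therefore partly set by the rule and are a description. As a mean over 15 pools, 42.7% ± 9.10 (SD) of members had genes of both sets, 20.5% ± 9.25 only the early set, 28.1% ± 11.1 only the late set and 8.77% ± 5.57 neither. In comparison cells (16 pools) the early set appeared alone in 17.0% ± 3.14, the late set alone in 3.07% ± 0.782 and both in 0.800% ± 0.490. Pools 1 and 2 again stood apart: 43.5% and 38.1% of their members had only the early set, against 9.64% to 25% in the other 13 pools with at least 10 members, and 4.35% and 7.2% had only the late set, against 21.6% to 46.3%. Neither range reached the values of pools 1 and 2. These pools were apart in the other classes too: among cycling cells with under 1% *Ibsp* the early set stood alone in 37.1% and 34.1% against 10.3% to 27.8% and the late set in 8.25% and 5.22% against 11.1% to 34.9%, and among comparison cells the early set in 24.7% and 23.6% against 13.5% to 18.4%. Reading a few genes at this depth is not a phase call, and free RNA can add to it: *Ccnb1* was seen at 5000 UMIs in 30.4% ± 6.97 (SD, n = 15) of members, 1.55% ± 0.630 of comparison cells and 6.12% ± 3.63 of leukocytes, some of which may themselves cycle (unthinned, 64.2%, 4.08% and 9.64%, at median depths of 24158, 18076 and 7975 UMIs).

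Promoters of the replication and mitosis genes differ in known cell cycle elements, and 3 are shown because their genes mark S phase, mitosis and an osteoblast product that was lower. They are RefSeq promoters of GRCm38.p6, 250 bases before to 50 after the start, printed along the gene's strand with matches in capitals to CHR (TTTGAA), the NF-Y box (CCAAT) and E2F sites (TTTGGCGC, TTTCCCGC, TTTGCCGC or TTTCGCGC), searched on both strands. In the *Mcm5* promoter (chr8:75109259-75109558, plus strand), 2 E2F matches on opposite strands overlap, 3 NF-Y boxes lie nearer the start, and there is no CHR match. The *Plk1* promoter (chr7:122159185-122159484, plus strand) has an NF-Y box and a CHR match, whereas that of *Ccnb1*, another mitosis gene (chr13:100786437-100786736, minus strand, not printed), has 2 NF-Y boxes and no CHR match. The *Bglap* promoter (chr3:88384417-88384716, minus strand) has an NF-Y box and no match to the others.
Mcm5: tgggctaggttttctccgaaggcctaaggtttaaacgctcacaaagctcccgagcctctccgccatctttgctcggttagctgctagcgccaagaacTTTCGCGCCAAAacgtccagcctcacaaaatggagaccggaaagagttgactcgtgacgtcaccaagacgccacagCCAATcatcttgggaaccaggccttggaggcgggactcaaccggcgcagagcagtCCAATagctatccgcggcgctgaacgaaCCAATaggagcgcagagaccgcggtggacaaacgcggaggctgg
Plk1: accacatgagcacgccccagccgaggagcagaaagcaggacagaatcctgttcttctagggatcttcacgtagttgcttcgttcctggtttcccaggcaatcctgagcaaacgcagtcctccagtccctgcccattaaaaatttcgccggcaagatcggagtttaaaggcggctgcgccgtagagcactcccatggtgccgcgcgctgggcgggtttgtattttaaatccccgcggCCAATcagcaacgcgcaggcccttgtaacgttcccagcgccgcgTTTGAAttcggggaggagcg
Bglap: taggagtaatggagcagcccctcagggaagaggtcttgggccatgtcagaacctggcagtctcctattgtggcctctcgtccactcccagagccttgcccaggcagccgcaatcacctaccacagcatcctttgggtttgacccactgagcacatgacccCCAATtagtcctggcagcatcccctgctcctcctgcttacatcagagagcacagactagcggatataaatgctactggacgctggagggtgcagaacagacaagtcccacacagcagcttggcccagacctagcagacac

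Of the promoters listed for the mitosis genes (46 of 53 genes matched by symbol), 35 of 50 (70%) held a CHR match, 39 of 50 (78%) an NF-Y box and 2 of 50 (4%) an E2F match. For the replication genes (39 of 47 matched) the counts were 7 of 47 (14.9%), 30 of 47 (63.8%) and 19 of 47 (40.4%). Among all 32851 promoters of the same length, 17.9% held a CHR match, 37.4% an NF-Y box and 2.26% an E2F match. A match describes letters in the window and says nothing of binding.

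Regulators of the decision to cycle were called in both directions. Many of them vary with the 6 genes of the rule, and some, such as *Mybl2* at 6.88 to 30.4 CPM (median 14.7) in members and 0.146 to 0.619 CPM (median 0.470) in comparison cells, passed the filter on low counts only through the members, so the counts and the values of the higher genes are a description. Of 22 genes of G1 and S phase control, 15 were higher, led by *E2f8* (5.47, chosen here after its value was seen), *Foxm1* (5.03) and *Mybl2* (4.84), with *E2f1* (1.99) and *Ccne2* (1.77) also higher, and 2 were lower, *Ccnd2* and *Rb1*, where 30.0% of all genes were higher and 31.5% lower. *Ccnd2*, 1 of the D cyclins of G1, had 80.3 to 225 CPM (median 125) in members and 142 to 296 CPM (median 230.0) in comparison cells, lower in 15 of 15 pools although the ranges overlapped (log2 fold change -0.88 ± 0.07 SE, adjusted p = 3.93e-12). *Ccnd1*, another D cyclin, had 186 to 625 CPM (median 341) against 115 to 440.5 CPM (median 261), higher in 15 of 15 pools (0.35 ± 0.06 SE, adjusted p = 1.35e-05). This difference was -0.16 (adjusted p = 0.0923) once comparison cells were matched to members on UMI count and *Ibsp* share. *Rb1*, the retinoblastoma gene, differed by -0.21 ± 0.05 (SE, adjusted p = 3.76e-04) and by 0.12 (adjusted p = 0.122) after that matching.

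Among 20 inhibitors of the cycle and p53 targets, 7 were higher and 7 lower, near the 30.0% and 31.5% of all genes (10 and 7 with total UMIs only, 6 and 9 after matching on UMI count and *Ibsp* share). Genes of this list too can vary with the 6 genes of the rule, so the counts and the values of the higher genes are a description. The genes *Cdkn2a* to *Cdkn2d* split: *Cdkn2d* and *Cdkn2c* were higher (2.01 ± 0.06 and 1.94 ± 0.09), and *Cdkn2a* and *Cdkn2b* lower (-0.91 ± 0.07 and -0.72 ± 0.09). In members *Cdkn2d* had 61.4 to 113 CPM (median 98.7), above the 16.2 to 25.3 CPM (median 21.9) of comparison cells without overlap, as for 5.09% of all genes tested. *Cdkn2a* had 29.2 to 84.3 CPM (median 49.3) against 39.5 to 155 CPM (median 103), lower in 15 of 15 pools with overlapping ranges. *Cdkn1a*, which encodes the CDK inhibitor p21, had 396 to 725 CPM (median 619.6) against 511 to 938 CPM (median 730.1), lower in 15 of 15 pools (log2 fold change -0.45 ± 0.04 SE, adjusted p = 1.54e-10), and remained common, being seen at 5000 UMIs in 88.4% ± 4.67 (SD, n = 15) of members. *Gas1*, a membrane protein first described in growth-arrested cells, was higher (1.16 ± 0.07), *Gadd45b* lower (-0.64 ± 0.05), and *Cdkn1c* was at 9.89 ± 4.72 CPM against 10.7 ± 3.42 (mean ± SD, n = 15), a difference of -0.33 that did not pass the test (adjusted p = 0.0508), whereas with called doublets removed it was -0.48 and passed (adjusted p = 0.00645).

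The regulators *Runx2*, *Sp7* and *Dlx5*, which define the osteoblast lineage, did not pass the test between members and comparison cells with TMM scaling. *Runx2* had 82.4 to 164 CPM (median 117) in members and 76.2 to 157 CPM (median 109) in comparison cells, with ranges that overlapped almost wholly (log2 fold change -0.07 ± 0.05 SE, adjusted p = 0.196, 95% interval -0.16 to 0.02). *Sp7* had 95.7 to 258 CPM (median 156) against 100.5 to 231 CPM (median 138) (-0.07 ± 0.04 SE, adjusted p = 0.103, interval -0.14 to 0.00), and *Dlx5* differed by 0.10 (adjusted p = 0.237, interval -0.04 to 0.25). Without pool 2 *Dlx5* gave 0.18 (adjusted p = 0.0123) and with cells classed after thinning to 5000 UMIs 0.18 (adjusted p = 0.0421), both past the test. *Pth1r*, the parathyroid hormone receptor of osteoblasts, had 733 to 1194 CPM (median 887) against 721 to 1069 CPM (median 895) (-0.10 ± 0.05 SE, adjusted p = 0.0618, interval -0.19 to -0.01). It was called lower under 14 of 35 alternatives, among them *Ibsp* of at least 4% (-0.19, adjusted p = 0.00762). *Sp7* was called lower under 8 of 35 and *Runx2* under 3 of 35. *Alpl*, the alkaline phosphatase that frees phosphate for mineral, had 1259.8 to 1907 CPM (median 1609.9) against 1246 to 1801 CPM (median 1551). Its log2 fold change was -0.14 ± 0.04 (SE, adjusted p = 0.00218) with TMM scaling and 0.01 (adjusted p = 0.85) with scaling to total UMIs only, so its direction rests on the scaling. TMM factors lowered the differences by a mean of 0.15 on the log2 scale relative to total UMIs, and the median of all genes was 0.14 under the latter, a choice added after seeing the data. For *Runx2*, *Sp7*, *Dlx5* and *Pth1r*, total UMIs gave 0.08, 0.08, 0.25 and 0.05 (adjusted p = 0.199, 0.0806, 0.00808 and 0.393), so the sign turned for all but *Dlx5*, which then passed the test. With comparison cells matched on UMI count and *Ibsp* share, *Sp7* differed by -0.17 (adjusted p = 0.00258).

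Of 15 transcription factors of the osteoblast list, 7 were lower and 2 higher, a share near the 61.5% called among all genes. Total UMIs gave 7 lower and 4 higher, and 5 were lower and 0 higher after matching on UMI count and *Ibsp* share. *Sox9*, a regulator of cartilage and early skeletal cells, had 27.6 to 65.4 CPM (median 41.5) in members against 52.2 to 92.4 CPM (median 79.8) and was lower (log2 fold change -1.04 ± 0.07 SE, adjusted p = 2.25e-13), as was *Dlx3* (-0.81 ± 0.09), a factor of osteoblast differentiation. *Snai2*, a repressor active in mesenchymal progenitors, had 19.4 to 66.9 CPM (median 37.9) against 8.70 to 33.3 CPM (median 15.8) and was higher in 15 of 15 pools (0.98 ± 0.08 SE, adjusted p = 3.20e-11), but by 0.15 (adjusted p = 0.171) when comparison cells were matched on UMI count and *Ibsp* share. The other factor that was higher was *Dlx6* (0.26, named after its value was seen).

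**Figure D3:**
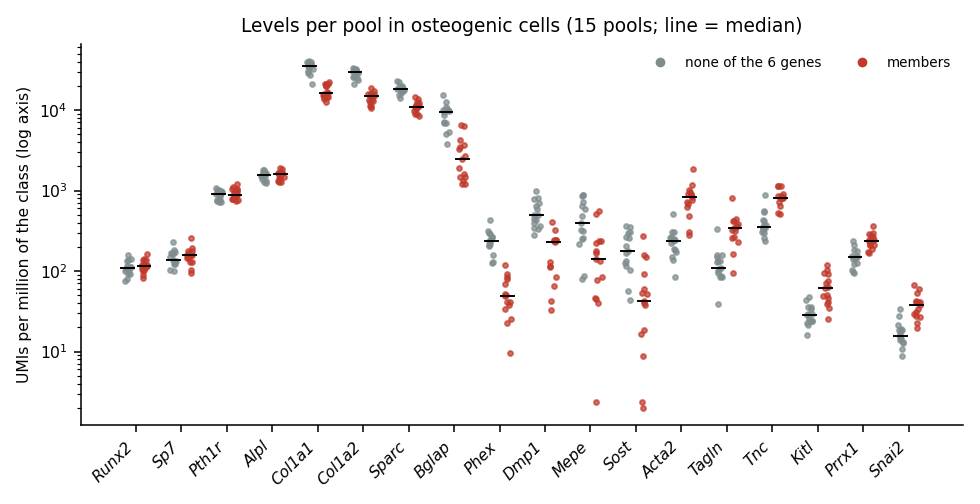
CPM (log axis) of 18 genes in members (red) and in osteogenic cells with none of the 6 cycle genes (grey), a point for each of 15 pools with the median as a line. *Runx2*, *Sp7*, *Pth1r* and *Alpl* overlap between classes, the matrix and mineral genes from *Col1a1* to *Sost* are lower in members, and *Acta2* to *Snai2* are higher.

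The most abundant osteoblast products were lower in members. *Col1a1*, which encodes a chain of collagen I, had 12725 to 22251 CPM (median 16159) in members and 21119.8 to 40371 CPM (median 35544) in comparison cells, and was lower in 15 of 15 pools (log2 fold change -1.14 ± 0.05 SE, adjusted p = 6.94e-17). The ranges met only at their edges. *Col1a2*, the other chain, had 10638 to 18759 CPM (median 14908) against 21176 to 32861 CPM (median 29539) (-1.15 ± 0.06 SE, adjusted p = 3.76e-16) without overlap, as for 5.09% of all genes tested. *Sparc*, a collagen-binding matrix glycoprotein, had 8469 to 14610 CPM (median 10833) against 14058 to 23056 CPM (median 18154) (-0.89 ± 0.05 SE, adjusted p = 1.45e-15), lower in 15 of 15 pools. Matched on UMI count and *Ibsp* share, the differences were smaller and still called: -0.48 for *Col1a1* (adjusted p = 4.87e-11), -0.54 for *Col1a2* (adjusted p = 5.28e-11) and -0.37 for *Sparc* (adjusted p = 1.01e-10). Matching set no limit on distance, and in pool 2 the 375 members drew on 794 comparison cells, so the matched classes may still differ in both measures. Even so, *Col1a1* and *Sparc* were among the most abundant transcripts of members, at a mean of 17226 and 11039 CPM.

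The collagen and matrix list as a whole was mixed. Of 26 genes, 12 were lower and 9 higher (median -0.15), where 31.5% of all genes were lower and 30.0% higher. *Col11a1*, a fibril collagen, was lower (-1.33 ± 0.08), and *Tnc* (tenascin C), *Col12a1* and *Col6a3*, matrix components of fibrous and perivascular stroma, were higher (0.95 ± 0.06, 0.82 ± 0.06 and 0.77 ± 0.06). *Tnc* had 511 to 1149 CPM (median 817) in members and 233 to 870.0 CPM (median 353) in comparison cells, higher in 15 of 15 pools. Under scaling to total UMIs only, 11 genes were higher and 8 lower, and with comparison cells matched on UMI count and *Ibsp* share 3 and 16.

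The machinery that folds and exports collagen was lower almost throughout. Of 31 genes, 26 were lower and 2 higher (median -0.53), beside 31.5% and 30.0% of all genes. The prolyl hydroxylase subunit *P4ha1* had 154 to 759 CPM (median 615) in members and 292 to 1320.1 CPM (median 990.2) in comparison cells (-0.86 ± 0.05 SE, adjusted p = 8.42e-15), *P3h4*, a partner in collagen hydroxylation, differed by -0.74 ± 0.05, and *Creb3l1*, a transcription factor of the secretory pathway in osteoblasts, by -0.69 ± 0.04. The exceptions were *Loxl1*, a cross-linking oxidase at 0.55 ± 0.08 (-0.10, adjusted p = 0.425, after matching on UMI count and *Ibsp* share), and *P4ha3*, named after its value was seen (0.93). After that matching 24 genes of the list were lower and 0 higher, with a median of -0.27.

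Genes of mineralization and of osteocytes had the lowest medians of the lists, which moved from -0.86 to -0.52 and from -1.49 to -0.71 after matching on UMI count and *Ibsp* share (16 and 8 genes lower and 1 of each list higher). Over all genes 31.5% were lower and 30.0% higher. The lists share genes, so their counts are not independent. *Phex* is in both of these lists and *Sost* is also in the WNT list. *P4ha1* is in the collagen folding and HIF lists, and *Atf3* in the stress response and immediate early lists. Of 23 mineralization genes, 20 were lower and 1 higher, *Slc20a2*, a phosphate transporter (0.86, named after its value was seen), with a median of -0.86. *Bglap* had 1192 to 6574 CPM (median 2455) in members and 3785 to 15385 CPM (median 9536) in comparison cells, and was lower in 15 of 15 pools with ranges that overlapped (log2 fold change -1.93 ± 0.14 SE, adjusted p = 1.91e-12). It lies beside the near-identical copies *Bglap2* and *Bglap3* on chromosome 3, among which reads could be split. These gave -1.80 ± 0.16 and -1.69 ± 0.12. *Phex*, an endopeptidase of osteoblasts and osteocytes that restrains phosphate loss, had 9.50 to 119.6 CPM (median 49.0) in members and 126 to 433 CPM (median 237) in comparison cells, without overlap (-2.36 ± 0.11 SE, adjusted p = 7.86e-17). *Ifitm5*, a membrane protein of mineralizing osteoblasts, had 198 to 557 CPM (median 346) against 399.8 to 798 CPM (median 600.4) (-0.86 ± 0.06 SE, adjusted p = 2.73e-12). *Spp1* (osteopontin) was lower in 14 of 15 pools and differed by -0.73 ± 0.09, and *Phospho1*, a phosphatase of matrix vesicles, differed by -0.92 ± 0.25 at levels of a few CPM (1.09 ± 0.786 against 1.80 ± 0.693 CPM, mean ± SD, n = 15).

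Of 13 osteocyte genes tested, 10 were lower and 3 higher (median -1.49). *Dmp1*, a matrix protein of osteocytes, had 32.6 to 401 CPM (median 232) in members and 282 to 978 CPM (median 497) in comparison cells, lower in 15 of 15 pools (-1.83 ± 0.13 SE, adjusted p = 1.85e-12). *Sost*, which encodes the WNT inhibitor sclerostin, had 1.98 to 271 CPM (median 42.9) against 44.2 to 362 CPM (median 177) (-1.93 ± 0.19 SE, adjusted p = 1.69e-09), and *Mepe*, a phosphoglycoprotein of osteocytes, 2.39 to 552 CPM (median 142) against 80.3 to 875 CPM (median 390.4) (-1.67 ± 0.15 SE, adjusted p = 2.65e-10). For all 3 the lowest members' pools lay far under any comparison pool while the ranges overlapped in the middle. The 3 that were higher were *Tnfsf11* (the osteoclast cytokine RANKL, 1.44, under 20 CPM and named after its value was seen), *Tnfrsf11b* (its decoy receptor osteoprotegerin, 0.56 ± 0.11) and *Npnt* (the matrix protein nephronectin, 0.50 ± 0.09). After matching on UMI count and *Ibsp* share, *Bglap* (-1.30, adjusted p = 6.16e-09), *Dmp1* (-1.32, adjusted p = 8.03e-07) and *Phex* (-1.07, adjusted p = 5.45e-10) were still lower, whereas *Sost* (-0.07, adjusted p = 0.826), *Mepe* (-0.14, adjusted p = 0.531) and *Tnfrsf11b* (-0.03, adjusted p = 0.847) were not called.

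The same order was seen as the share of cells with a transcript. At 5000 UMIs per cell, *Dmp1* was found in 30.6% ± 14.3 of members, 55.4% ± 8.25 of comparison cells and 7.39% ± 6.25 of leukocytes, a cell type that should lack it, and *Phex* in 17.1% ± 9.21, 46.6% ± 9.54 and 2.65% ± 1.82 (mean ± SD, n = 15, 16 and 16 pools). Unthinned, *Dmp1* was found in 53.3%, 71.5% and 10.8%. Members thus lay between comparison cells and the level that free RNA gives. *Bglap* was found at 5000 UMIs in 46.1% ± 14.9 of leukocytes, 77.1% ± 13.9 of members and 88.1% ± 6.06 of comparison cells.

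**Figure D4:**
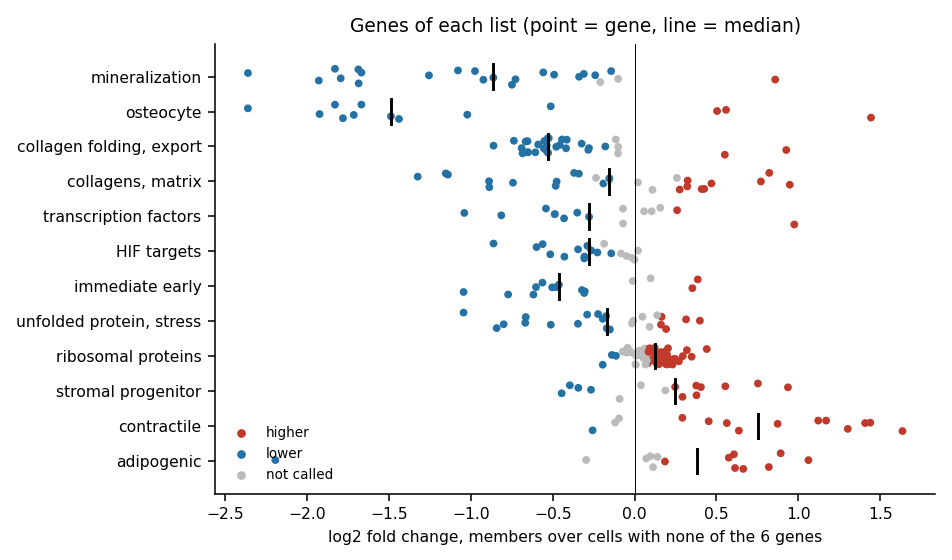
Log2 fold change of members over osteogenic cells with none of the 6 cycle genes (horizontal axis) for each tested gene of 12 lists, coloured by whether the gene was called higher, lower or neither at an adjusted p of 0.05, with the median of each list as a line. The medians run from -1.49 for osteocyte genes to 0.76 for contractile genes.

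Contractile genes were higher in members. Of 14 tested, 11 were higher and 1 lower, *Cyr61* (-0.26 ± 0.05, or -0.10, adjusted p = 0.1, with total UMIs only), with a median of 0.76, where 30.0% of all genes were higher. *Acta2*, the smooth muscle actin that also marks stromal and perivascular progenitors, had 281 to 1829.5 CPM (median 819.8) in members and 84.6 to 516 CPM (median 233) in comparison cells, higher in 15 of 15 pools with overlapping ranges (log2 fold change 1.64 ± 0.08 SE, adjusted p = 2.11e-16). *Tagln* (transgelin) had 95.3 to 813 CPM (median 345) against 38.5 to 333 CPM (median 109) (1.30 ± 0.07 SE, adjusted p = 1.90e-15), and *Actg2*, another smooth muscle actin, differed by 1.44 ± 0.12. At 5000 UMIs, *Acta2* was found in 58.3% ± 10.9 of members, 23.7% ± 5.91 of comparison cells and 14.5% ± 4.50 of leukocytes. After matching on UMI count and *Ibsp* share, 9 contractile genes were higher and 0 lower with a median of 0.23, *Acta2* by 0.83 (adjusted p = 1.08e-06) and *Tagln* by 0.35 (adjusted p = 0.00237).

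Markers of stromal progenitors followed in part. Of 15 tested, 8 were higher and 4 lower, beside 30.0% and 31.5% of all genes. With cells classed at 5000 UMIs, 6 were higher and 6 lower. *Kitl*, which encodes stem cell factor, a signal of stromal cells to blood progenitors, had 25.7 to 118 CPM (median 61.6) in members and 16.2 to 47.6 CPM (median 28.2) in comparison cells, higher in 15 of 15 pools (0.94 ± 0.10 SE, adjusted p = 6.36e-09). *Prrx1*, a transcription factor of limb mesenchyme, had 167 to 362 CPM (median 239) against 94.7 to 236 CPM (median 148) (0.55 ± 0.04 SE, adjusted p = 2.84e-13), and *Pdgfrb*, a growth factor receptor of perivascular cells, differed by 0.75 ± 0.08. *Pdgfra*, the related receptor, differed by -0.34 ± 0.07, *Cd44*, the hyaluronan receptor, by -0.45 ± 0.06, *Ctsk*, the cathepsin K gene, by -0.40 ± 0.05, *Cxcl12*, a chemokine of marrow stroma, by 0.29 ± 0.12 (adjusted p = 0.033), and *Ly6a* (SCA-1) by 0.38 ± 0.11, or 0.19 (adjusted p = 0.13) with called doublets removed. *Cxcl12* was called higher under only 15 of 35 alternatives. The signs of *Pdgfra* (0.13, adjusted p = 0.139), *Cxcl12* (-0.25, adjusted p = 0.167) and *Ly6a* (-0.02, adjusted p = 0.929) turned after matching on UMI count and *Ibsp* share, with 3 of the list higher and 3 lower (median -0.04, from 0.25). *Pdgfrb* (0.15, adjusted p = 0.14) and *Cd44* (-0.22, adjusted p = 0.0508) were then not called, while *Kitl* (0.44, adjusted p = 8.51e-04) and *Prrx1* (0.20, adjusted p = 2.72e-04) stayed higher. Of 14 adipogenic genes 9 were called, near the 61.5% of all genes. Of them 8 were higher, among them *Fabp4* (0.82 ± 0.17), *Lpl* (0.61 ± 0.09) and *Ebf1* (0.61 ± 0.07), and 1 was lower, *Cfd* (adipsin, -2.20 ± 0.36), which was at 1.33 ± 2.32 against 5.11 ± 7.28 CPM (mean ± SD, n = 15) and was under the filter on low counts without pool 2 or without called doublets, and changed sign when cells with more genes were admitted (0.21).

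Levels changed by degrees with the number of the 6 genes detected, not only at the limit of 4. *Bglap* had 8689 ± 2985 CPM in osteogenic cells with none of the genes (mean ± SD, n = 16), 7685 ± 2776 with 1, 5317 ± 1956 with 2, 5214 ± 3035 with 3 (n = 15), 3350.2 ± 1861 with 4 (n = 14), 2553 ± 2261 with 5 and 2760.1 ± 1727 with 6 (n = 15 each). *Acta2* had 231 ± 97.0 CPM with none, 552 ± 360.4 with 3, 718 ± 285 with 4 and 839.5 ± 433 with 6. *Phex* had 244 ± 75.0, 88.7 ± 60.4, 52.6 ± 24.7 and 46.9 ± 27.0, whereas *Runx2* had 110.0 ± 22.5, 127 ± 25.3, 112 ± 25.9 and 123 ± 22.1. Between 4 and 6 genes, the means differed by less than the SD over pools for these 4 genes. Called doublets made up 6.91% of cells with none of the genes, 20.2% with 3, 19.0% with 4 and 14.2% with 6. The median *Ibsp* share fell in parallel, being 5.88% with none, 4.76% with 2, 3.66% with 3, 2.99% with 4 and 3.18% with 6. Median depth was 18076 UMIs with none, 24387 with 2, 21097 with 3 and 27128.5 with 6. Cells were not matched on any of these here, and their part in the gradient was not tested.

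**Figure D5:**
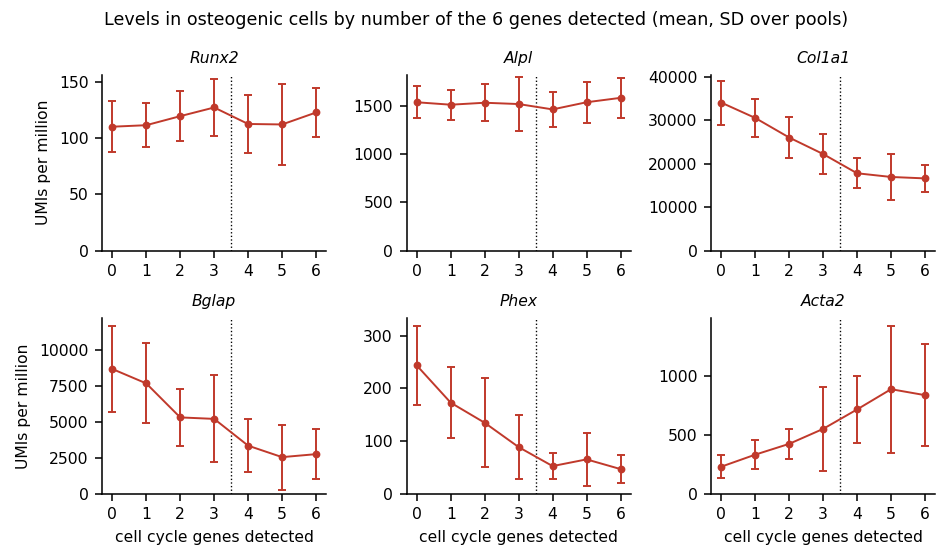
Mean CPM (vertical axes from 0, with SD over pools) of 6 genes in osteogenic cells by the number of the 6 cell cycle genes detected (horizontal axis), the dotted line marking the limit for members. *Col1a1*, *Bglap* and *Phex* fall and *Acta2* rises up to 4 genes, while *Runx2* and *Alpl* stay within the SD over pools.

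Metabolic and stress lists held more lower than higher calls with TMM scaling, where 30.0% of all genes were higher and 31.5% lower. Of 18 targets of the hypoxia factor HIF, 12 were lower and the other 6 were not called (median -0.28; 9 lower with total UMIs only, and 5 lower with a median of -0.01 after matching on UMI count and *Ibsp* share), with *Higd1a* at -0.60 ± 0.04, *Ero1l* at -0.56 ± 0.06 and *Hk2* at -0.52 ± 0.05. Of 18 glycolysis genes 11 were lower, among them *Aldoc* (-1.52 ± 0.08) and *Hk1* (-0.49 ± 0.06), and 3 higher, *Ldhb* (0.42 ± 0.08), *Eno1* (0.31 ± 0.05) and *Pgam1* (0.14 ± 0.04). With scaling to total UMIs only, the glycolysis split was 5 higher and 6 lower, and after matching on UMI count and *Ibsp* share it was 5 and 4 with a median of 0.02 in place of -0.12. Of 23 genes of the unfolded protein and integrated stress responses 13 were lower, among them *Atf3* (-1.05 ± 0.06), *Dnajb9* (-0.84 ± 0.05) and *Chac1* (-0.80 ± 0.08), and 5 higher, among them the serine synthesis genes *Phgdh* (0.40 ± 0.08) and *Psat1* (0.31 ± 0.08) and the stress gene *Ddit4* (0.19 ± 0.06); the split was 8 and 9 with total UMIs only. Of 15 immediate early genes, 11 were lower, including *Jund* (-0.77 ± 0.04) and *Zfp36* (-0.62 ± 0.05), and 2 were higher, *Egr1* (0.39 ± 0.05) and *Egr2* (0.35, named after its value was seen). After matching on UMI count and *Ibsp* share, 9 of these genes were lower and 1 higher, with a median of -0.18 in place of -0.46.

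Ribosomal protein genes were slightly higher, 52 of 80 with a median of 0.12, for example *Rpl3* (0.44 ± 0.04) and *Rpl10a* (0.35 ± 0.04), and 3 were lower, *Rpl38* (-0.20 ± 0.03), *Rps28* (-0.14 ± 0.03) and *Rps26* (-0.11 ± 0.04), of which the last 2 turned sign with scaling to total UMIs only (0.01 and 0.04), when *Rpl38* was not called (-0.04, adjusted p = 0.172). Total UMIs gave 76 higher, and matching on UMI count and *Ibsp* share 18 higher and 7 lower with a median of 0.03. Oxidative phosphorylation genes split 22 higher, such as *Ndufv1* (0.39 ± 0.04), *Atp5g2* (0.35 ± 0.03) and *Atp5c1* (0.33 ± 0.03), and 32 lower of 76, such as *Ndufa1* (-0.78 ± 0.05), *Ndufa13* (-0.57 ± 0.03) and *Cox6a1* (-0.57 ± 0.05), with a split of 44 against 13 with total UMIs only. The higher share was near the 30.0% of all genes, and 31.5% of all genes were lower. Nucleotide and one-carbon genes were higher in 23 of 24, beside 30.0% of all genes. The other, *Nme1*, was lower (-0.21 ± 0.04, or -0.06, adjusted p = 0.181, with total UMIs only). Genes of this list can vary with the cell cycle genes of the rule, so the count is a description.

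Signalling genes went in both directions. Of 21 WNT genes 6 were higher and 8 lower, beside 30.0% and 31.5% of all genes. The split was 10 and 5 with total UMIs only and 2 and 7 after matching on UMI count and *Ibsp* share. *Dkk1*, an inhibitor of WNT signalling, had 2.26 to 31.5 CPM (median 9.21) against 11.5 to 39.0 CPM (median 23.2) and was lower (-1.38 ± 0.11 SE, adjusted p = 8.92e-12), as was the R-spondin receptor *Lgr6* (-1.47 ± 0.09), and the nuclear effector *Tcf7* (0.65 ± 0.08) and the modulators *Sfrp1* (0.56 ± 0.14) and *Kremen1* (0.29 ± 0.07) were higher, although *Sfrp1* (-0.12, adjusted p = 0.574) and *Kremen1* (-0.29, adjusted p = 0.0121) turned sign after matching on UMI count and *Ibsp* share. Of 31 genes of the BMP, TGF-β, IGF, FGF and NOTCH axes, 6 were higher, led by the IGF-binding proteins *Igfbp4* (0.68 ± 0.09) and *Igfbp7* (0.55 ± 0.05) and the receptor *Fgfr3* (0.39 ± 0.07), and 14 lower, among them the ligands *Bmp3* (-0.81 ± 0.06), *Tgfb2* (-0.75 ± 0.10) and *Bmp2* (-0.62 ± 0.08). After that matching *Igfbp4* (0.12, adjusted p = 0.301) and *Igfbp7* (0.10, adjusted p = 0.17) were not called, and the split was 3 higher and 5 lower (9 and 8 with total UMIs only).

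Outside the cell cycle lists, the 10 genes of 50 CPM or more that fell furthest were *C430049E01Rik* (-2.45 ± 0.11), *Gal* (-2.37 ± 0.13), *Phex*, *Car12* (-2.09 ± 0.08), *Bglap*, *Sost*, *Dmp1*, *Comp* (-1.80 ± 0.12), *Bglap2* and *Jam2* (-1.78 ± 0.08), 5 of which belong to the mineralization or osteocyte lists. *Gal*, which encodes the neuropeptide galanin, had 10.3 to 86.7 CPM (median 27.9) in members and 56.0 to 305 CPM (median 159) in comparison cells (-2.37 ± 0.13 SE, adjusted p = 5.31e-15), and *Car12*, a membrane carbonic anhydrase, 31.6 to 219 CPM (median 80.8) against 179.8 to 568 CPM (median 341) (-2.09 ± 0.08 SE, adjusted p = 3.99e-19). Both were lower in 15 of 15 pools with overlapping ranges. The unnamed transcript *C430049E01Rik* had 3.82 to 26.5 CPM (median 10.3) against 35.02 to 81.9 CPM (median 53.3), without overlap. After matching on UMI count and *Ibsp* share, *Gal* gave -0.66 (adjusted p = 5.48e-04), *Car12* -1.11 (adjusted p = 1.02e-08), *C430049E01Rik* -1.29 (adjusted p = 1.26e-08) and *Jam2* -1.22 (adjusted p = 1.56e-11), and *Comp*, at -0.36, was not called (adjusted p = 0.118). Without pool 2, which held the most members, *Gal* gave -2.37, *Car12* -2.08, *Bglap* -2.02, *Col1a1* -1.17 and *Acta2* 1.66.

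Markers of other cells were low in both classes as medians over pools, and those of macrophages moved with the comparison. The summed level of 11 macrophage and leukocyte markers was 94.97 to 482 CPM in members (median 246) and 93.9 to 256 in comparison cells (median 161), higher in 12 of 15 pools. Of the 11 genes 7 were called higher, where 30.0% of all genes were. Among them were *Fcer1g* (0.52 ± 0.11), *C1qa* (0.48 ± 0.17) and *Lyz2* (0.38 ± 0.14). With called doublets removed, with cells classed at 5000 UMIs, or with *Ibsp* of at least 4%, 0 of the 11 were called. With called doublets removed, *Fcer1g* gave 0.04 (adjusted p = 0.843), *C1qa* 0.09 (adjusted p = 0.601) and *Lyz2* -0.10 (adjusted p = 0.411), while *Bglap* (-2.33), *Phex* (-2.80), *Col1a1* (-1.30) and *Acta2* (1.76) differed by more than with them. Granulocyte markers summed to 2.91 to 1006 CPM in members (median 21.0, higher than in comparison cells in 5 of 15 pools), with *Ngp* at 1.59 ± 0.44, higher in 8 of 15 pools, and at 0.19 (adjusted p = 0.576) with called doublets removed. Lymphocyte markers had a median sum of 6.37 CPM in members, endothelial markers 17.8, glial markers 13.8 and osteoclast markers 14.9, against 6.56, 14.0, 10.9 and 14.7 in comparison cells. These sums were higher in members in 3, 12, 11 and 7 of 15 pools. The highest pool had 294 CPM of lymphocyte markers in members and 160 in comparison cells. Of the erythroid markers, *Hba-a2*, *Hbb-bs*, *Hbb-bt* and *Alas2* were at 0 in members.

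The difference between cycling and other cells was then compared between osteogenic cells and cells with under 1% *Ibsp*, of which 1837 had at least 4 of the 6 genes and 11296 had none. The latter cells are a mixture, with granulocyte markers up to 5214 CPM in the cycling cells of a pool, so a difference in composition and a difference within cells cannot be told apart there. In all, 1470 genes (11.8%) had a more positive and 2846 (22.8%) a more negative cycling difference in osteogenic cells (edgeR interaction term, 12505 genes, 34.5% called). This split was not stable. It was 1776 and 2308 with relative log expression factors and 6038 and 655 with total UMIs only. With TMM, more positive than negative terms were also called in the second run (2176 and 1654), with comparison cells matched on UMI count (1378 and 821), with no filter on low counts (1902 and 1649) and without pool 3 (2064 and 1699), 5 (2021 and 1688), 8 (2057 and 1697) or 11 (2051 and 1703).

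The collagen I genes differed between the sides. *Col1a1* had 17226 ± 3211 CPM in members and 34055 ± 5233 in osteogenic comparison cells, but 2685 ± 788 in cycling and 2510.4 ± 790.4 in other cells with under 1% *Ibsp* (mean ± SD, n = 15). Its cycling difference was -1.14 on the osteogenic side and 0.23 on the other, and the interaction was -1.44 ± 0.16 (adjusted p = 6.05e-10). *Col1a2* (-1.44 ± 0.14) and *Sparc* (-1.07 ± 0.12) gave interactions of the same sign, and all 3 were called with that sign under every one of 22 alternatives. None of these alternatives matched cells on *Ibsp* share. In the osteogenic comparison, matching on UMI count and *Ibsp* share moved the *Col1a1* difference to -0.48, and its effect on the interaction was not tested. Over all genes tested, 11.8% had a more positive and 22.8% a more negative difference. Of the 31 collagen folding and export genes, 27 had a more negative difference in osteogenic cells (17 with total UMIs only and 17 matched on UMI count). Of 14 adipogenic genes, 14 had a more positive one: *Lpl*, which encodes lipoprotein lipase, had 48.9 ± 26.8 CPM in members and 29.0 ± 13.3 in osteogenic comparison cells, against 344 ± 171 and 1251 ± 483 in cycling and other cells with under 1% *Ibsp*. Of 14 contractile genes, 8 had a more positive difference (14 with total UMIs only and 11 matched on UMI count), although the level of *Acta2* was 2419 ± 494 CPM in cycling cells with under 1% *Ibsp* and 821 ± 373 in members. Of 23 mineralization genes 15 had a more negative difference (9 with total UMIs only and 9 matched on UMI count), and 67 of 80 ribosomal genes, whose direction flipped with total UMIs only (23 more positive) and which were 22 more negative in the second run and 4 more negative and 2 more positive when matched on UMI count. Among cycle genes the term was 8 higher and 5 lower of 47 replication genes and 10 and 13 of 53 mitosis genes. With total UMIs only it was 28 higher and 2 lower for replication and 30 higher and 6 lower for mitosis, and 6 higher and 2 lower for replication and 9 higher and 5 lower for mitosis when matched on UMI count.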

How the data were processed

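The authors deposited raw UMI counts of 31053 features for each called barcode of a sample. The submitters' processing notes name Cell Ranger 5.0.0 and mm10. The filters, doublet calls and mouse assignments that the authors applied later are not in these counts. Both runs of a pool read the same droplets, so the first was analysed and the second served as an alternative. Members and gene lists were chosen with earlier results of these data known.

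For each class the UMIs of a pool were added up, and edgeR 4.0.16 (R 4.3.3; low-count filter of filterByExpr, TMM factors, quasi-likelihood F test, pool as a block) was run over all genes, at a Benjamini-Hochberg adjusted p of 0.05, in pools with at least 10 cells of each class. Each SE was obtained from the fold change and the square root of its F statistic. Both classes come from the same pool, and deviations of same-numbered pools correlated (lowest 0.280, median 0.413, other pools -0.0157). The script was tested on simulated data. Shares of members are outputs of the rule, so they are described without a test. Doublets were scored against simulated pairs of cells. DESeq2 1.42.0, other scalings, filters, limits and matchings were tried. Matching took for each member the nearest unused comparison cell of its pool, at any distance, and the balance reached is not given here.

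Named genes were a fixed set, up to 3 per list and direction by fold change at 20 CPM or more, and the 10 highest and lowest outside the cycle lists and of each interaction sign at 50 CPM or more with the same direction in 9 of 10 pools. Coordinates and promoters are of GRCm38. Symbols carried by more than 1 feature (71 features) were kept apart by identifier. Some genes that the rule names are not reported here.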

Additional observations from a re-analysis of the deposited data

Results flagged for a closer look

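For 23 genes named in the text, the interaction term of edgeR over 15 pools was called. The term sets the difference between cycling cells and cells with none of the 6 genes against the Ibsp class. For some of the genes, named below, it is a description only, and no difference between the sides is read from *Jchain* and *Retn*. The values are log2 differences, osteogenic minus the other side. The term was negative for *Col1a1* (-1.44), *Col1a2* (-1.44), *Sparc* (-1.07), *Mepe* (-1.62), *C430049E01Rik* (-1.60), *Car12* (-1.71), *Lipc* (-1.79), *Cd109* (-1.73), *Pcolce2* (-2.15), *Entpd3* (-1.53), *Sost* (-2.24), *Plpp1* (-1.88) and *Loxl4* (-1.86). It was positive for *Fmo2* (2.34), *Gdpd2* (2.32), *Fabp4* (2.28), *Cfd* (4.80), *Vegfc* (2.18), *Lpl* (2.36), *Igfbp3* (2.27), *Slfn5* (2.18), *Jchain* (3.49) and *Retn* (2.82). Standard errors ran from 0.12 to 1.247 and adjusted p-values, *Jchain* and *Retn* aside, from 5.07e-13 (*Cd109*) to 0.0101 (*C430049E01Rik*). *Jchain* and *Retn* were under the filter on low counts in the osteogenic comparison and passed it here once cells with under 1% *Ibsp* were added, so their values are a description and no difference between the sides is read from them. *Fmo2*, *Gdpd2*, *Cfd*, *Igfbp3* and *Slfn5* passed that filter in the osteogenic comparison. With comparison cells matched on UMI count they fell under it there, so their values are a description too. The positive genes include the adipocyte products *Cfd*, *Lpl* and *Fabp4*, whose highest levels were in cells with under 1% *Ibsp* and none of the 6 genes: *Fabp4* had 1548 ± 513 CPM there and 80.7 ± 29.9 in members (mean ± SD, n = 15). The call was kept under all 22 alternatives, none of which matched cells on *Ibsp* share, except for 7 genes. *Fmo2* lost it without pool 6 (1.64, adjusted p = 0.0793), *Cfd* with cells matched on UMI count (3.85, adjusted p = 0.055), *C430049E01Rik* in the second run (-1.32, adjusted p = 0.082), and *Mepe* (-1.54, adjusted p = 0.102) and *Sost* (-1.94, adjusted p = 0.0637) with no replicate block. *Jchain* lost it with no replicate block (1.88, adjusted p = 0.429) and without pool 17 (1.66, adjusted p = 0.312). *Retn*, which 21 alternatives tested, lost it with no replicate block (2.503, adjusted p = 0.131) and without pool 2 (2.76, adjusted p = 0.0536), 10 (2.29, adjusted p = 0.12) or 17 (2.57, adjusted p = 0.0838). In the osteogenic comparison *Igfbp3* was at -0.39 (adjusted p = 0.0793) and, with called doublets removed, at -0.66 (adjusted p = 0.0193). No explanation was tested.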

How the results depend on the processing

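The counts of genes called in members (3599 higher, 3781 lower) stayed within 1.5 times under all alternatives except 3: comparison cells matched on UMI count and *Ibsp* share (2274 and 2347, with fewer cells and 9329 genes tested), *Ibsp* of at least 4% (2376 higher, fewer members) and scaling to total UMIs only (5176 and 2378). With no replicate block the counts were 2986 and 3027, and without 1 pool at a time 3414 to 3613 and 3615 to 3837. For the interaction (1470 and 2846), the lower count was 821 matched on UMI count, 1649 with no filter and 1654 in the second run, both counts were 864 and 1486 with no replicate block and 6038 and 655 with total UMIs only, and without 1 pool at a time 1313 to 2064 and 1688 to 2835. Without pools 3, 5, 8 or 11, taken singly, the lower counts were 1699, 1688, 1697 and 1703; the cause was not tested. The difference in the share of cycling cells kept its sign under all alternatives, from -5.15 to -2.63 points (without 1 pool at a time -3.96 to -3.47), and was -3.72 with no replicate block, which leaves the mean as it is. Spearman's rho of share and depth was -0.59 after thinning, -0.59 in the second run and -0.61 without pools 1 and 2, where r was -0.71 (n = 14), and without pool 2 r was -0.0861 and rho -0.46. Of 5360 values of named genes, 5196 kept the direction and the side of the threshold, 96 were no longer past it, 49 newly past it, and 19 were of opposite sign for a gene called in the main comparison (sign changes of uncalled genes, such as *Runx2*, *Sp7* and *Pth1r* with total UMIs, are not counted). Of 505 values of the 23 named interactions, 11 were no longer past the threshold. Matching on UMI count and *Ibsp* share turned *Cyr61* (0.0131), *Alpl* (0.0686), *Pdgfra* (0.13), *Cxcl12* (-0.25), *Ccnd1* (-0.16), *Sfrp1* (-0.12), *Rb1* (0.12), *Loxl1* (-0.0967), *Kremen1* (-0.29), *Tnfrsf11b* (-0.0330) and *Ly6a* (-0.0208), total UMIs only turned *Alpl* (0.00936), *Rps26* (0.0386) and *Rps28* (0.0136), cells without *Tyrobp* turned *C1qa* (-0.0335) and *Lyz2* (-0.19), removal of doublets *Lyz2* (-0.10), *Ibsp* of at least 4% *Slfn5* (0.21) and a higher limit on genes *Cfd* (0.21).

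Depth per cell limits which cells can be called members, the 6200-gene limit removes deep cycling cells, and a pool mixes 4 or 5 genotypes, so variation between mice was not analysed here.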
